A study of Mus musculus with 6 samples.

Results

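The 36 genes described here encode the enzymes that bring pyruvate into mitochondria, convert it to acetyl-CoA, and run the tricarboxylic acid (TCA) cycle, together with the kinases and phosphatases that switch pyruvate dehydrogenase, the malic enzymes, and the proteins that export and cleave citrate. They were taken as a list of gene symbols and matched to the Ensembl identifiers of the count tables. All 36 symbols matched 1 of the 55536 genes in the tables, and all 36 passed the filter on low counts that left 21465 genes in the test. The genes were chosen by pathway, with the fold changes and p-values of the same genotype comparison already known. The counts of members below are therefore a description, and no test of the list was made. Subunits of succinate dehydrogenase were not on the list and are given with the neighbouring pathways.

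Testis RNA was sequenced from 3 KOStra8 and 3 HETStra8 mice, all 7 weeks old, in 1 library for each mouse. KOStra8 mice carried a floxed and a deleted Sel1L allele with Stra8-Cre, a transgene that is driven by a male germ cell promoter. HETStra8 mice were littermates with a floxed and a deleted Sel1L allele and no Cre named in the series record. Published use of the name also takes in Stra8-Cre carriers that are floxed on 1 chromosome and wild-type on the other, so the genotype of each control mouse is not known here, and both groups can lack some Sel1L. SEL1L is the partner of the ubiquitin ligase HRD1 in endoplasmic reticulum-associated degradation. Cre deletes the floxed allele in germ cells only, partially in spermatogonia, and Sertoli cells keep SEL1L. By the genotype given, somatic cells of KOStra8 mice carry the deleted allele beside an intact floxed one. The RNA of a whole testis thus mixes cells with and without SEL1L. In such a mixture, fewer cells of a type and less RNA in each cell cannot be told apart.

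Pyruvate enters the mitochondrial matrix through the carrier MPC1-MPC2. The pyruvate dehydrogenase complex (PDC) then makes acetyl-CoA, and it is switched off by phosphorylation of its E1α subunit through the PDK kinases and on again through the PDP phosphatases. The acetyl group joins oxaloacetate as citrate and is oxidized around the TCA cycle, which feeds the respiratory chain. Testis is known for germ cell forms of metabolic enzymes. Pdha2 is an intronless, autosomal retrocopy of the X-linked E1α gene Pdha1, and it serves in meiotic and postmeiotic germ cells, where the X chromosome is transcriptionally silenced. Spermatocytes and spermatids are supplied with lactate and pyruvate by Sertoli cells.

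Pdha2 lies on chromosome 3 (GRCm38, 141210004 to 141212355, minus strand) as a single exon, and Pdha1 lies on the X chromosome (160122209 to 160138413, minus strand). Their coding sequences, of 1176 and 1173 bases in the gene annotation, were 75.6% identical, with 887 of 1173 aligned bases the same. The longest identical run was 20 bases, and no stretch of 50 bases of a Pdha2 transcript occurred in any other gene. Reads of the 2 genes could thus be kept apart, which the comparison of levels below needs. The stretch around the longest identical run is shown 5′ to 3′, from coding base 262 to 341 of Pdha2 and from 259 to 338 of Pdha1, with the 9 differing bases in capitals.
Pdha2: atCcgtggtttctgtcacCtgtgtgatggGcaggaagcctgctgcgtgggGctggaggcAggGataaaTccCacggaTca
Pdha1: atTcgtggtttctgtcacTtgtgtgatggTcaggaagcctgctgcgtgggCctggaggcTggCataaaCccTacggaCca

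The sequences before the transcription starts differed more. The 250 bases upstream of each annotated start (RefSeq, GRCm38.p6, both genes on the minus strand) are shown because the comparison of germ cell and somatic forms rests on these 2 genes. Capitals mark TATAAA, the core of the TATA box, a promoter element that lies upstream of the start of many tissue-restricted genes.
Pdha2, chr3:141212356-141212605: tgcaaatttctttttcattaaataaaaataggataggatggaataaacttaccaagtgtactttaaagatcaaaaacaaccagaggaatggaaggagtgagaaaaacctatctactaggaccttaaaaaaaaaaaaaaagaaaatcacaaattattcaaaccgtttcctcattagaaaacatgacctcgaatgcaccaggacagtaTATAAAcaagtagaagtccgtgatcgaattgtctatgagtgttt
Pdha1, chrX:160138431-160138680: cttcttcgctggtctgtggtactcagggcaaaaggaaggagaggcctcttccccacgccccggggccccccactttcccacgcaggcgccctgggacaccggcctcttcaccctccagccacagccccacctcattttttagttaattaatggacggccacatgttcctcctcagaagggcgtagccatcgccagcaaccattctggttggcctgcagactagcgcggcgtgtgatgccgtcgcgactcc

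The Pdha2 window held 4 CpG dinucleotides at a GC content of 31.6%, and the Pdha1 window held 15 at 61.6%. RefSeq gave 43 such windows for 33 of the 36 genes, since a gene may have several starts, and none for Idh3a, Me2 and Pdp1. The letters TATAAA, searched on both strands, stood in 2 of the 43 windows (4.65%), those of Pdha2 and Mdh1b, against 12.4% of 32851 windows of all genes. The GC box letters GGGCGG stood in 60.5% of the 43 windows and in 32.7% of all, CCAAT in 48.8% and 33.8%, and TGACGT, a core of the cAMP response element, in 16.3% and 6.47%. Windows of the same gene can overlap, as some with TGACGT at Ogdh do, so the same letters can be counted more than once. The median window of the list held 17 CpG dinucleotides at a GC content of 61.6%, whereas the median of all windows held 6 at 52.4%. The windows with TATAAA were less CpG-rich than the median of the list, with 4 CpG dinucleotides for Pdha2 and 12 for Mdh1b. A match of letters is a description and shows no binding.

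Library totals lay between 28875108 and 36526695 counts, and the common biological coefficient of variation was 0.160. Sel1l, the targeted gene, was 49.3, 47.6 and 42.4 CPM, counts scaled to a common library size, in HETStra8 mice 1, 2 and 3 and 24.2, 22 and 20.3 CPM in KOStra8 mice 1, 2 and 3, and it fell by 1.07 on the log2 scale (SE 0.104; adjusted p = 0.000610, edgeR quasi-likelihood test with Benjamini-Hochberg adjustment). The libraries did not all sit with their group. By chi-square per degree of freedom over all genes, where a higher value means less alike, HETStra8 mouse 3 was nearer the KOStra8 libraries (9.51 to 12.4) than HETStra8 mouse 1 (27.5) or mouse 2 (14.2), and HETStra8 mouse 1 was farthest from the KOStra8 libraries (26.2 to 40.5). For each gene with an unadjusted p below 0.05, the value is therefore also given without each of these 2 mice. Both were picked on these same counts. Leaving out the HETStra8 mouse nearest the KOStra8 libraries tends to widen the group difference, and leaving out the farthest tends to narrow it.

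Levels of the 36 genes were compared per length, as CPM per kb of exon and as the mean ± SD over all 6 mice. They spanned from 0.683 ± 0.147 for Pdp2, a pyruvate dehydrogenase phosphatase, to 113 ± 7.57 for Sucla2, the ADP-forming β-subunit of succinyl-CoA synthetase. Sucla2 was followed by Me1, the cytosolic malic enzyme that makes NADPH, at 94.8 ± 3.86. Pdha2 at 69.3 ± 4.42 and Mdh1b, a malate dehydrogenase-like gene of germ cells, at 69.0 ± 2.44 came next and did not differ from each other beyond their spread. Pdk2, a kinase that switches the PDC off, stood at 63.9 ± 4.18.

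Genes of 1 complex did not share 1 level. Within the PDC, the E1β gene Pdhb (36.6 CPM per kb), the E2 gene Dlat (24.1), the E3 gene Dld (22.4) and the E3-binding protein gene Pdhx (15.7) all lay below Pdha2 and far above Pdha1 (1.80 ± 0.208). Of the NAD-dependent isocitrate dehydrogenase, Idh3b at 23.5 stood above Idh3g at 5.41 and Idh3a at 3.94. Mpc2 at 28.9 stood above its partner Mpc1 at 4.56. Of the X-linked genes, Pdha1 and Idh3g stood at these low levels and the kinase gene Pdk3 at 29.4 CPM per kb. Exon lengths of a gene include rarely used transcripts, so these levels depend on the annotation.

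**Figure D1:**
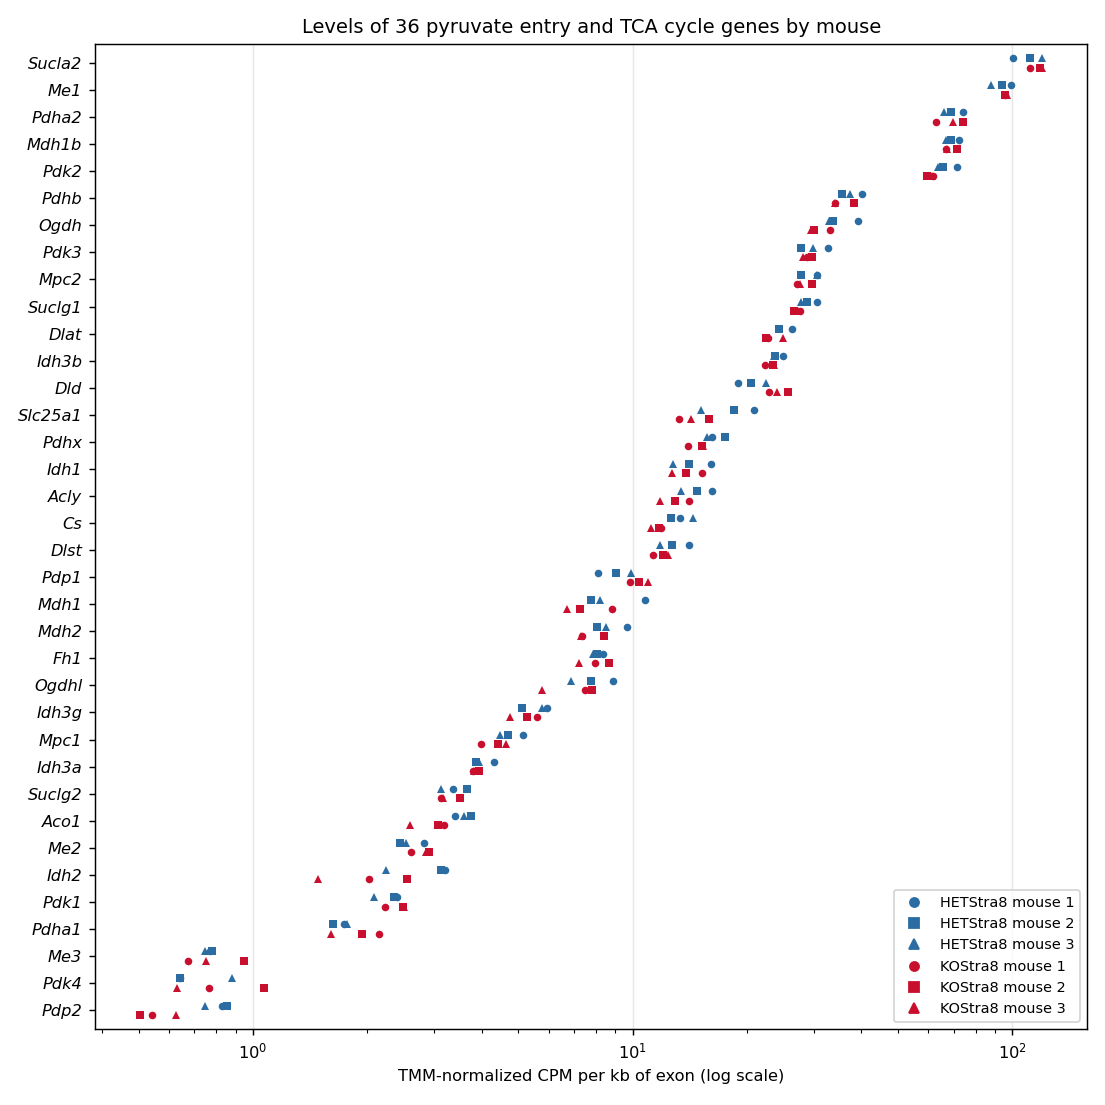
Level of each of the 36 genes in TMM-normalized CPM per kb of exon (x axis, log scale), ordered by the mean over the 6 mice; each point is 1 mouse, HETStra8 in blue and KOStra8 in red, with the shape giving the mouse number. The levels ran from 0.683 for Pdp2 to 113 for Sucla2, and the colours lay close together in each line except at low levels.

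Sucla2 had 399, 442 and 478 CPM in HETStra8 mice 1, 2 and 3 and 444, 469 and 478 CPM in KOStra8 mice 1, 2 and 3. Me1 had 381, 362 and 337 CPM and 368, 368 and 372 CPM in the same order. In both genes the groups overlapped, and the log2 fold changes of 0.08 and 0.04 had adjusted p of 0.712 and 0.862 (edgeR). Of the Me1 transcript sequence, 22.9% in stretches of 50 bases also occurred in other genes, mostly the pseudogene Gm7049, so its count is uncertain to that extent.

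The genotype comparison asked whether loss of SEL1L in germ cells went with another level of these transcripts. None of the 36 genes had both a fold over 2 and an adjusted p under 0.01, the cutoffs in use for these data (0.00932% of all 21465 genes did), and none passed an adjusted p of 0.05 (0.0233% of all genes did), the smallest adjusted p being 0.299 (edgeR quasi-likelihood test with Benjamini-Hochberg adjustment). The differences were small. The log2 fold changes, KOStra8 against HETStra8, ran from -0.53 to 0.23 with a median SE of 0.10, and the largest fold was 1.45. Their median size was 0.110 on the log2 scale, against 0.165 over all genes tested. The median SE over all genes was larger too, at 0.177, so the 2 sizes were not measured with the same precision.

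In sign, most differences lay on the lower side. In KOStra8 27 of 36 genes had a log2 fold change below 0 (75%, against 51.5% of all genes tested), with a median of -0.08 against -0.01 for all genes. At an unadjusted p of 0.05 in the same edgeR fit, 6 of the 36 were lower, namely Slc25a1, Pdp2, Cs, Idh2, Aco1 and Ogdh, where 5.12% of all genes were, and 2 were higher, Dld and Pdp1, where 7.13% of all genes were. Every KOStra8 mouse was lower than every HETStra8 mouse in 7 genes (Pdhx, Pdk2, Pdp2, Cs, Aco1, Idh3b and Suclg1; 8.43% of all genes did so), and every one was higher in 1, Dld (9.33% of all genes). With 1 mouse left out at a time, 2 to 6 genes were lower and 0 to 3 were higher at that p. Over all genes, 499 to 1947 were lower and 945 to 2428 higher in the same fits, of 22023 to 22173 tested. HETStra8 mouse 1 was the highest of the 6 libraries in 21 of the 36 genes, against 5460 of all 21465 genes. Without that mouse 23 genes lay below 0, 3 were lower and 0 were higher at an unadjusted p of 0.05, where 11296, 759 and 1156 of 22173 genes tested did so. The counts of lower genes were also 3 without HETStra8 mouse 2 or KOStra8 mouse 2 and 2 without KOStra8 mouse 3, and those of higher genes were 0, 0 and 1. Over all genes, 780, 939 and 499 were lower in these 3 fits and 1171, 1433 and 945 were higher.

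**Figure D2:**
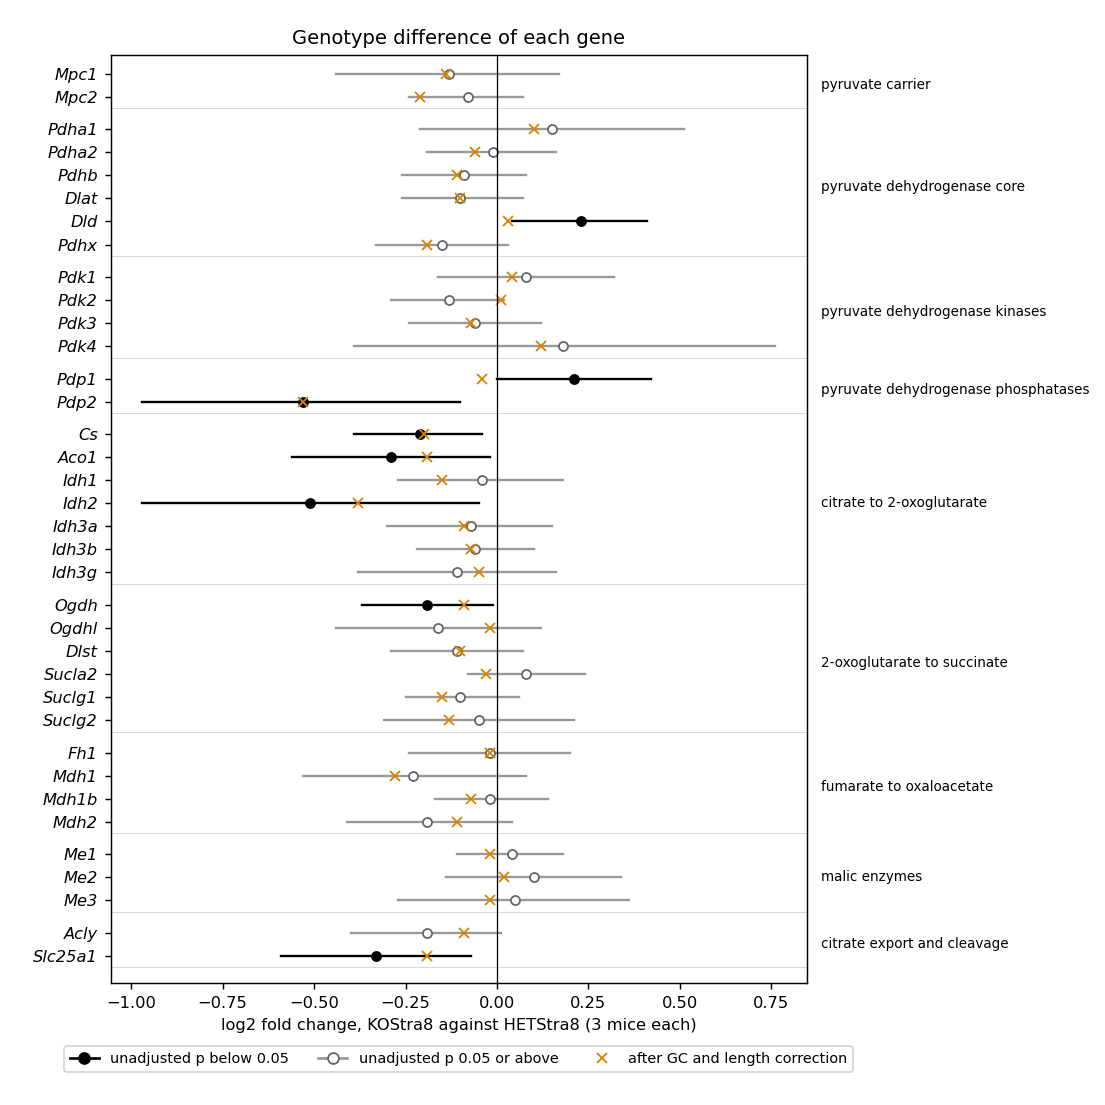
Log2 fold change of each of the 36 genes (x axis, KOStra8 against HETStra8, 3 mice each) by role, with the 95% confidence interval of the edgeR fit as a bar; filled points have an unadjusted p below 0.05, and crosses give the value after correction for GC content and length. Points lie between -0.53 and 0.23, 27 of 36 to the left of 0, and after correction the higher values of Dld and Pdp1 moved to 0.03 and -0.04.

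The genotype difference varied with base composition. Over 21457 genes with a known GC content, the Spearman correlation of the log2 fold change with the GC content of the longest transcript was -0.46, and over the 36 genes it was -0.74, both given as descriptions across genes that share the same 6 libraries. Dld and Pdp1, the 2 genes that were higher, had GC contents of 40.6% and 39.2%. Of the 6 lower genes, Slc25a1 and Idh2 had 59.1% and 55.6%, Ogdh and Aco1 52.5% and 52.1%, and Cs and Pdp2 48.2% and 47.7%. After a correction of each library for GC content and length, the correlation over the 36 genes was -0.20. Then 30 of 36 lay below 0 (83.3%, against 50.4% of all genes), with a median of -0.09. None was higher at an unadjusted p of 0.05 (4.07% of all genes), and 5 were lower, Mpc2, Pdhx, Pdp2, Cs and Suclg1 (3.51% of all genes), with a smallest adjusted p of 0.536 (edgeR). Of the 6 genes lower before the correction, Pdp2 and Cs were also among these 5. The longest annotated transcript had 1 exon for Mpc2, Pdhb, Cs, Dlst, Mdh2 and Me2 and 3 exons for Idh3b and Suclg1. It may not be the transcript that was mostly sequenced, so the GC contents and corrected values of these genes are less certain.

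**Figure D3:**
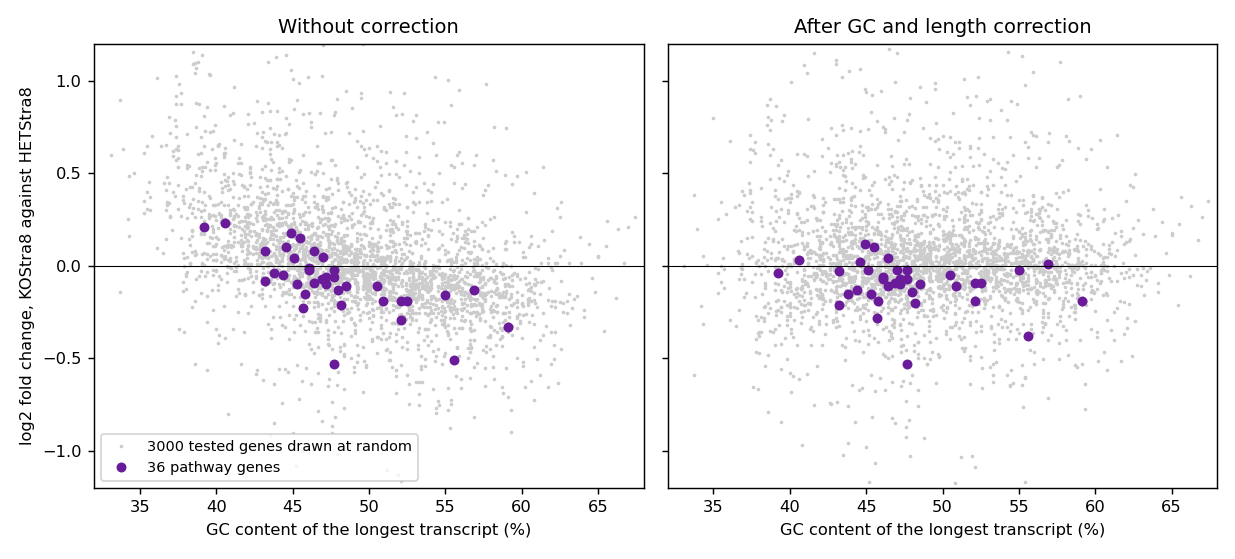
Log2 fold change, KOStra8 against HETStra8, against the GC content in percent of the longest transcript, before (left) and after (right) correction for GC content and length; purple points are the 36 genes and grey points are 3000 tested genes drawn at random, of which those beyond the axis limits are not drawn. The purple points slope downward on the left, with a Spearman correlation of -0.74, and less so on the right, with -0.20.

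The pyruvate carrier genes did not pass the adjusted test. Mpc1 and Mpc2, whose products together form the carrier in the inner mitochondrial membrane, had log2 fold changes of -0.13 and -0.08 (adjusted p = 0.741 and 0.678, edgeR). After the GC and length correction the value of Mpc2 was -0.21 (unadjusted p = 0.0140, adjusted p = 0.536, edgeR). Mpc1 shares 23.1% of its exon bases with a gene on the opposite strand and 11% of its 50-base stretches with other genes, mostly a pseudogene of its own, and the strand setting of the counting was not given.

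Among the 6 genes of the PDC core, Pdha2 was at nearly the same level in both groups. Its 174, 162 and 155 CPM in HETStra8 mice and 148, 174 and 164 CPM in KOStra8 mice overlapped fully, and the log2 fold change was -0.01 (SE 0.0810; 95% confidence interval -0.19 to 0.16; adjusted p = 0.965, edgeR). Pdha1 had 6.49, 6.06 and 6.60 CPM in HETStra8 and 8.02, 7.25 and 5.97 CPM in KOStra8, and its log2 fold change of 0.15 had a wider interval of -0.21 to 0.51 (adjusted p = 0.758, edgeR). KOStra8 mice 1 and 2 were the highest for Pdha1 and KOStra8 mouse 3 the lowest. Exons of Pdha1 overlap those of Map3k15 on the opposite strand over 16.1% of their length.

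Dld, the E3 subunit that the PDC shares with the 2-oxoglutarate dehydrogenase complex, was the only one of the 36 genes in which the KOStra8 values all exceeded the HETStra8 values. It had 69.7, 75.5 and 82.9 CPM in HETStra8 and 84.3, 94.4 and 88.2 CPM in KOStra8. The gap between the groups was narrow, from 82.9 to 84.3 CPM. The log2 fold change was 0.23 (SE 0.0872; unadjusted p = 0.0205, adjusted p = 0.327, edgeR), 0.17 without HETStra8 mouse 1 (unadjusted p = 0.0646), and 0.30 without HETStra8 mouse 3, where the adjusted p was 0.0496 (edgeR). That mouse was picked for its nearness to the KOStra8 libraries. Without it 2428 of 22091 genes were higher at an unadjusted p of 0.05 (edgeR), against 1530 of 21465 with all mice. After the GC and length correction the log2 fold change of Dld was 0.03 (unadjusted p = 0.730, edgeR). The other core genes Pdhb, Dlat and Pdhx had log2 fold changes of -0.09, -0.10 and -0.15 (adjusted p = 0.692, 0.649 and 0.484, edgeR). In Pdhx, which tethers E3 to the complex, the 3 KOStra8 mice were the 3 lowest.

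None of the 6 regulator genes of the PDC passed the adjusted test. The 4 kinase genes had log2 fold changes of 0.08 for Pdk1, -0.13 for Pdk2, -0.06 for Pdk3 and 0.18 for Pdk4, with adjusted p of 0.457 to 0.816 (edgeR). Pdk4, the kinase gene known for its response to fasting, was at 0.773 CPM per kb and had the widest interval of the 36 genes, from -0.39 to 0.76.

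Pdp2, 1 of the 2 phosphatase genes, had the largest fold of the list. It gave 4.71, 4.84 and 4.26 CPM in HETStra8 and 3.09, 2.87 and 3.56 CPM in KOStra8, from counts of 148, 163 and 142 and of 108, 83 and 130. The highest KOStra8 value, 3.56 CPM, stayed under the lowest HETStra8 value, 4.26 CPM. The log2 fold change was -0.53 (SE 0.201; unadjusted p = 0.0187, adjusted p = 0.315, edgeR), and it was -0.53 after the GC and length correction as well. Without HETStra8 mouse 1 it was -0.52, and without HETStra8 mouse 3 it was -0.58.

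Pdp1, the other phosphatase gene, had 36.6, 40.7 and 44.5 CPM in HETStra8 and 44.4, 46.9 and 49.5 CPM in KOStra8. HETStra8 mouse 3 overlapped KOStra8 mouse 1. Its log2 fold change of 0.21 (SE 0.0971; unadjusted p = 0.0486, adjusted p = 0.404, edgeR) was 0.14 without HETStra8 mouse 1 (unadjusted p = 0.161, edgeR), 0.29 without HETStra8 mouse 3, and -0.04 after the GC and length correction. Since Pdp1 made up most of the phosphatase transcripts, their summed level did not follow Pdp2: it was 41.3, 45.5 and 48.7 CPM in HETStra8 and 47.5, 49.8 and 53.1 CPM in KOStra8.

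**Figure D4:**
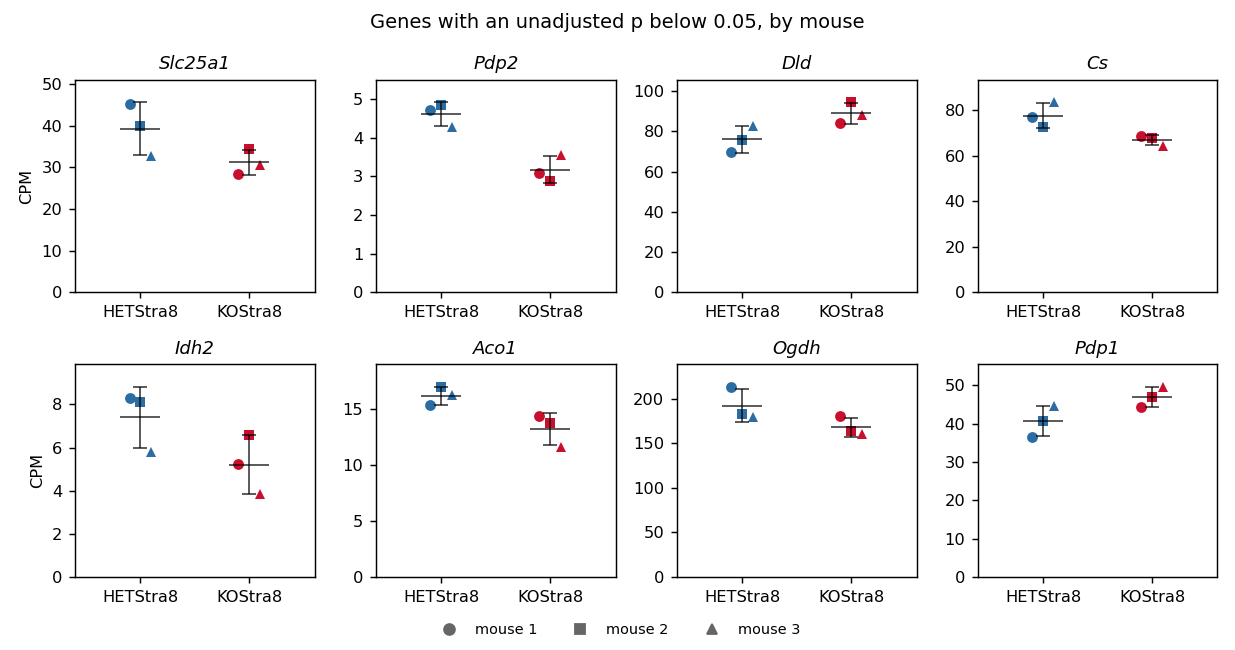
CPM in each mouse (points, shape by mouse number) for the 8 of 36 genes with an unadjusted p below 0.05, in order of p, with the group mean and SD (n = 3) as a bar and whiskers; each y axis starts at 0. The groups stand apart in Pdp2, Dld, Cs and Aco1 and overlap in Slc25a1, Idh2, Ogdh and Pdp1, and no gene passed the adjusted test.

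All 7 genes of the steps from citrate to 2-oxoglutarate had log2 fold changes below 0, as did 75% of the list and 51.5% of all genes. Their median was -0.11, and 3 of them were lower at an unadjusted p of 0.05, where 5.12% of all genes were. After the GC and length correction 1 of the 7, Cs, was lower at that p, where 3.51% of all genes were. Cs, the citrate synthase that opens the cycle, had 76.9, 72.7 and 83.5 CPM in HETStra8 and 68.6, 67.7 and 64.5 CPM in KOStra8. The groups did not overlap, and the log2 fold change was -0.21 (SE 0.0830; unadjusted p = 0.0215, adjusted p = 0.334, edgeR). It was -0.22 without HETStra8 mouse 1, -0.15 without HETStra8 mouse 3 (unadjusted p = 0.0866, edgeR), and -0.20 after the GC and length correction. Of its 50-base stretches 2.01% were shared with Csl, a citrate synthase-like gene.

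Idh2, the mitochondrial NADP-dependent isocitrate dehydrogenase, had 8.30, 8.11 and 5.79 CPM in HETStra8 and 5.24, 6.56 and 3.83 CPM in KOStra8. HETStra8 mouse 3 lay within the range of the KOStra8 mice. The log2 fold change was -0.51 (SE 0.216; unadjusted p = 0.0333, adjusted p = 0.367, edgeR), -0.42 without HETStra8 mouse 1 (unadjusted p = 0.0921), -0.65 without HETStra8 mouse 3, and -0.38 after the GC and length correction (unadjusted p = 0.0754). The cytosolic enzyme gene Idh1 had -0.04 (adjusted p = 0.898, edgeR), so the 2 NADP-dependent forms did not stand at the same value, though the difference between them was not tested.

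Aco1, the cytosolic aconitase that doubles as an iron regulatory protein, had 15.3, 16.9 and 16.2 CPM in HETStra8 and 14.3, 13.7 and 11.6 CPM in KOStra8. No KOStra8 mouse reached a HETStra8 mouse, and the log2 fold change was -0.29 (SE 0.126; unadjusted p = 0.0383, adjusted p = 0.381, edgeR). It was -0.32 without HETStra8 mouse 1, -0.27 without HETStra8 mouse 3 (unadjusted p = 0.0670, edgeR), and -0.19 after the GC and length correction (unadjusted p = 0.140). The subunit genes of the NAD-dependent isocitrate dehydrogenase, Idh3a, Idh3b and Idh3g, lay closer to 0, at -0.07, -0.06 and -0.11 (adjusted p = 0.819, 0.783 and 0.758, edgeR).

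From 2-oxoglutarate to succinate, 5 of 6 genes had log2 fold changes below 0, with a median of -0.10. Of the whole list 75% lay below 0, and of all genes 51.5%. Ogdh, the E1 subunit of the 2-oxoglutarate dehydrogenase complex, had 213, 183 and 179.7 CPM in HETStra8 and 181, 164 and 161 CPM in KOStra8. KOStra8 mouse 1 overlapped HETStra8 mouse 3, and the log2 fold change of -0.19 (SE 0.0837; unadjusted p = 0.0389, adjusted p = 0.382, edgeR) was -0.11 without HETStra8 mouse 1 (unadjusted p = 0.166), -0.23 without HETStra8 mouse 3, and -0.09 after the GC and length correction. Its relative Ogdhl had -0.16 and the E2 gene Dlst -0.11 (adjusted p = 0.645 and 0.611, edgeR). Of succinyl-CoA synthetase, the shared α-subunit gene Suclg1 had -0.10 and the GDP-forming β-subunit gene Suclg2 -0.05 (adjusted p = 0.617 and 0.900, edgeR), beside 0.08 for Sucla2. Of the 50-base stretches of Suclg2, 16% were shared with other genes.

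The 4 genes from fumarate to oxaloacetate had values below 0, as did 75% of the list and 51.5% of all genes, and none passed an unadjusted p of 0.05. Mdh1b had 125, 118 and 115 CPM in HETStra8 and 115, 123 and 116 CPM in KOStra8, and the log2 fold change was -0.02 (SE 0.0743; 95% confidence interval -0.17 to 0.14; adjusted p = 0.951, edgeR). Mdh1, the cytosolic malate dehydrogenase of the malate-aspartate shuttle, had 27.6, 20 and 21.0 CPM in HETStra8 and 22.7, 18.7 and 17.2 CPM in KOStra8. HETStra8 mouse 1 stood above the other 5 mice, and the log2 fold change was -0.23 (SE 0.142; adjusted p = 0.533, edgeR) and -0.07 without that mouse. Fumarase, Fh1, had -0.02 and the mitochondrial malate dehydrogenase gene Mdh2 had -0.19 (adjusted p = 0.949 and 0.499, edgeR).

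The malic enzyme genes, which turn malate to pyruvate, were the only role with all values above 0 before correction. The role holds only 3 genes, and 51.5% of all genes lay below 0. Beside Me1, the mitochondrial forms Me2 and Me3 had log2 fold changes of 0.10 and 0.05 (adjusted p = 0.747 and 0.925, edgeR), and 2 of the 3 genes lay below 0 after the GC and length correction.

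Citrate export and cleavage, the route by which citrate supplies acetyl-CoA to the cytosol, had a median of -0.26 over 2 genes, and of -0.14 after the GC and length correction. Slc25a1, the mitochondrial citrate carrier, had 45.3, 40.0 and 32.7 CPM in HETStra8 and 28.5, 34.4 and 30.7 CPM in KOStra8. HETStra8 mouse 3 lay within the KOStra8 range. It had the smallest p of the 36 genes, and its log2 difference was -0.33 (SE 0.121; 95% confidence interval -0.59 to -0.07; unadjusted p = 0.0155, adjusted p = 0.299, edgeR). The value was -0.22 without HETStra8 mouse 1 (unadjusted p = 0.0727), -0.19 after the GC and length correction (unadjusted p = 0.0807), and -0.44 without HETStra8 mouse 3, where the adjusted p was 0.0268 (edgeR). That mouse was picked for its nearness to the KOStra8 libraries. Without it 1947 of 22091 genes were lower at an unadjusted p of 0.05 (edgeR), against 1100 of 21465 with all mice. Acly, the ATP citrate lyase, had -0.19 (adjusted p = 0.424, edgeR), and its 3 KOStra8 values of 74.6, 67.8 and 62.4 CPM overlapped the HETStra8 values of 85.6, 78.1 and 70.6 CPM.

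Within a library, the ratio of 2 forms of an enzyme does not depend on how libraries are scaled. Per kb of exon, Pdha2 was 42.5, 42.3 and 37.2 times Pdha1 in HETStra8 mice 1, 2 and 3 and 29.3, 38.1 and 43.5 times in KOStra8 mice 1, 2 and 3. The germ cell form thus made up 96.7 to 97.8% of both E1α forms in every mouse. The KOStra8 mice held both the lowest and the highest ratio, and the log2 ratio differed by -0.15 (exact permutation test, two-sided, p = 0.7; 0.84 adjusted over 6 pairs). Without KOStra8 mouse 1 the difference was 0.004. Per length of the longest transcript the mean ratio was 31.0 in HETStra8 and 27.8 in KOStra8, instead of 40.6 and 36.5.

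Mdh1b was on average 7.86 times Mdh1 in HETStra8 and 9.08 times in KOStra8, or 87.1 to 90.9% of the sum of both in each mouse. The log2 ratio differed by 0.21 (exact permutation test, two-sided, p = 0.3; adjusted p = 0.8), and it ranged from 0.10 without HETStra8 mouse 1 to 0.34 without KOStra8 mouse 1. Unlike Pdha2 and Pdha1, these 2 genes shared only 57.8% of their aligned coding bases, and Mdh1b was compared as the germ cell member of the family, with no claim to the same enzyme activity.

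Pdp2 against Pdp1 was the 1 ratio of the 6 whose groups did not overlap. The log2 ratio was -3.29, -3.40 and -3.72 in HETStra8 and -4.17, -4.36 and -4.13 in KOStra8. Pdp2 was the rarer transcript in every mouse, with a mean ratio of 0.0536 in KOStra8 and 0.0902 in HETStra8. The difference of -0.75 had an exact permutation p of 0.1 (two-sided), which is the smallest that 3 mice against 3 can give, and 0.6 after adjustment over 6 pairs. The 2 genes differ in GC content, Pdp1 at 39.2% and Pdp2 at 47.7%. With the GC and length correction the log2 fold change of Pdp1 went from 0.21 to -0.04, while that of Pdp2 was -0.53 in both fits. The difference of the ratio would thus be smaller after that correction, and the part of GC content in it was not tested.

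The other 3 ratios overlapped between the groups. Ogdhl was 0.222 times Ogdh in HETStra8 and 0.226 times in KOStra8 (exact permutation p = 1), Suclg2 was 0.0307 and 0.0281 times Sucla2 (exact permutation p = 0.4), and Me3 was 0.296 and 0.282 times Me2 (exact permutation p = 0.6).

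**Figure D5:**
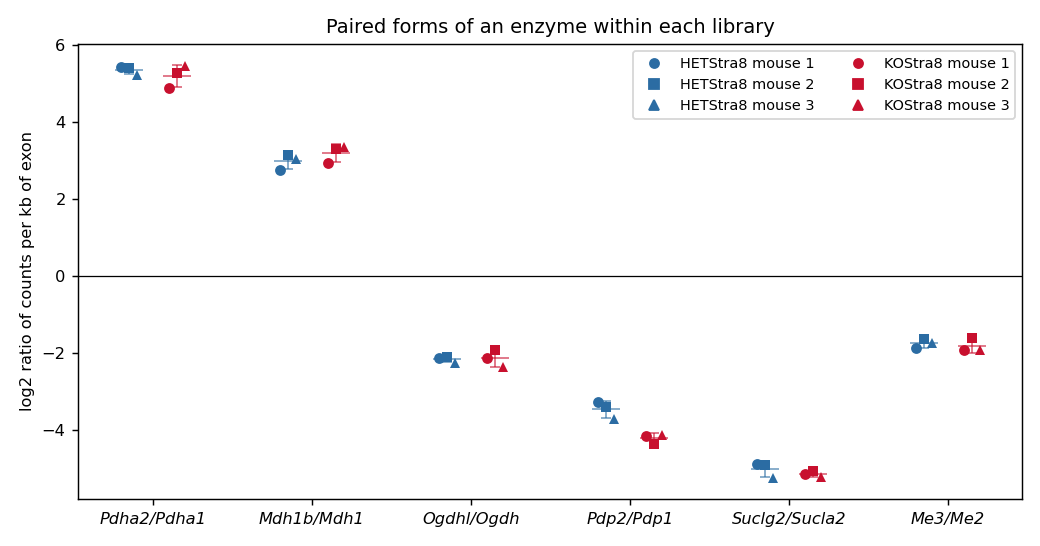
Log2 ratio of counts per kb of exon for 6 pairs of related enzymes in each mouse (y axis), HETStra8 in blue and KOStra8 in red, with the group mean and SD (n = 3). Pdha2 and Mdh1b stand above their partners in all 6 mice, and the groups do not overlap for Pdp2/Pdp1, at -3.72 or more in HETStra8 and -4.13 or less in KOStra8.

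Genes of adjoining pathways, 37 in a list of lactate, succinate, ketone body, glutamate and aspartate enzymes, gave the same picture of small differences. All 37 were tested and none passed an adjusted p of 0.05 (edgeR). A log2 fold change below 0 was found in 27 of 37 (73%), with a median of -0.13, and in 29 after the GC and length correction, with a median of -0.07. At an unadjusted p of 0.05, 1 was higher and 7 were lower, where 7.13% and 5.12% of all genes were and 51.5% of all genes lay below 0. After the GC and length correction 1 was higher and 2 were lower, against 4.07% and 3.51% of all genes. Succinate dehydrogenase, the member of the cycle that is also respiratory complex II, was among the 7 only through its anchor subunit gene Sdhd. Sdhd was named after its values were seen and stood at -0.23 on the log2 scale (unadjusted p = 0.0280, adjusted p = 0.355, edgeR). The subunit genes Sdha, Sdhb and Sdhc stood at -0.13, -0.19 and -0.11. They were not among the 7 (unadjusted p = 0.117, 0.0646 and 0.253, edgeR).

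Got2, the mitochondrial aspartate aminotransferase, had 15.7, 11.3 and 12.2 CPM in HETStra8 and 10.6, 10.3 and 7.94 CPM in KOStra8, and the log2 difference was -0.45 (SE 0.164; adjusted p = 0.30, edgeR).

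The testis-specific ketone body enzymes Oxct2a and Oxct2b are near-identical copies, so how reads were split between them is uncertain. Oxct2a had 204, 194 and 196 CPM against 179, 175 and 169 CPM, and Oxct2b had 239, 233 and 222 CPM against 191, 215 and 201 CPM. Their log2 fold changes of -0.18 and -0.19 (adjusted p = 0.312 for both, edgeR) were -0.04 and -0.06 after the GC and length correction. Csl, named after its values were seen because it resembles Cs, had 227, 204 and 174 CPM against 180.1, 143 and 177 CPM and a log2 fold change of -0.27 (adjusted p = 0.353, edgeR).

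The cell makeup of the libraries was described by marker lists, since somatic cells and germ cells of different stages use different forms of these enzymes. Counts at an unadjusted p of 0.05 stand against 5.12% of all genes lower and 7.13% higher, and counts below 0 against 51.5%. The summed level of 10 Sertoli cell markers was 977 to 1172 CPM in HETStra8 and 817 to 936 CPM in KOStra8, with 10 of 10 log2 fold changes below 0 and 3 lower. For 8 Leydig cell markers it was 560.2 to 845 and 472 to 604 CPM, with 8 of 8 below 0 and 1 lower. For 9 markers of elongating spermatids it was 15889 to 15933 and 14141 to 15874 CPM, with 8 of 9 below 0 and 3 lower. Macrophage markers (78.4 to 91.1 and 67.8 to 93.3 CPM) had 7 of 8 values below 0, 2 of them lower, and a median of -0.36 on the log2 scale. Peritubular myoid cell markers (362 to 440.1 and 350.1 to 387 CPM) were below 0 in 6 of 6, with 1 lower. The 8 markers of leptotene and zygotene spermatocytes went the other way, at 286 to 539 and 591 to 612 CPM, with 8 of 8 above 0 and 1 higher. Pachytene and diplotene markers (6473 to 6734 and 6316 to 6618 CPM) and round spermatid markers (919 to 1038 and 922 to 1022 CPM), the stages known for Pdha2, overlapped between the groups. Of the pachytene and diplotene markers, 5 of 9 lay below 0 and 1 was higher. Of the round spermatid markers, 3 of 8 lay below 0 and none was higher or lower. The 6 epididymis markers were at 0.386 to 7.64 and 0.138 to 0.229 CPM and none passed the filter. Sums for spermatogonia and for endothelial, muscle, fat and blood cells overlapped, with no marker higher or lower at that p. The part of these shifts in the values of the 36 genes was not tested.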

How the data were processed

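Whole-testis poly(A)+ RNA went into strand-marking libraries that were read from both ends. What the authors deposited for each mouse is a table of unnormalized read counts over 55536 Ensembl genes. The submitters' processing notes name, without roles, FastQC, Trimmomatic, STAR 2.7.1a, Picard 2.20.4, StringTie 2.0.4, featureCounts 1.6.0, HTSeq, ChIPseeker and the build mm10. The strand setting of the counting is not given in the sources used here. Symbols, positions, exon lengths and GC contents came from a GENCODE annotation of GRCm38, and upstream sequences from RefSeq (GRCm38.p6).

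From the counts, genes were filtered with filterByExpr, scaled by TMM and tested by genotype with edgeR's quasi-likelihood F test (edgeR 4.0.16, R 4.3.3; two-sided, robust), with Benjamini-Hochberg adjustment over all 21465 genes tested. The p-values set the group difference against the spread between mice of a group. CPM were TMM-normalized. A prior count of 2 went into the log2 CPM used for the GC and length offsets and for the pairing check. Fold changes used the edgeR default. The 6 enzyme pairs were compared by an exact permutation test of within-library log2 ratios with a pseudocount of 0.5. Offsets for GC content and length came from a loess fit per library (span 0.3). A 95% level was used for intervals. Scripts were tested on simulated counts. Alternatives were other scalings and filters, DESeq2 1.42.0, limma-voom (limma 3.58.1), a replicate block, and leaving out each mouse.

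Every listed gene was accounted for. Values of every mouse were given for Pdha2, Pdha1, Mdh1b, Mdh1, the members with an unadjusted p below 0.05, the 3 of highest level per length, and the 4 neighbours with the smallest p, of which 1 is not reported here. The members, the neighbouring pathways and the marker lists were chosen with earlier results of these data known.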

Additional observations from a re-analysis of the deposited data

How the results depend on the processing

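No alternative brought a gene of the list past both a fold of 2 and the adjusted p cutoff of 0.01. In the main fit 8 of the list passed an unadjusted p of 0.05, as did 2630 of all 21465 genes tested. Over 15 alternatives the sign held for 25 of 36 genes. An adjusted p of 0.05 was passed by 2, both only without HETStra8 mouse 3, the HETStra8 mouse nearest the KOStra8 libraries. Without a filter the smallest adjusted p of a member was 0.0873, and DESeq2 gave none for Pdk4 and Pdp2. Genes higher at an unadjusted p of 0.05 numbered 2, but 0 with the GC and length correction, alone or with the replicate block, 1 with DESeq2, and 0 to 3 with 1 mouse left out (0 without HETStra8 mouse 1 or 2 or KOStra8 mouse 2, 1 without KOStra8 mouse 3). Lower ones numbered 6, 2 to 6 with 1 mouse left out (3 without HETStra8 mouse 1 or 2 or KOStra8 mouse 2, 2 without KOStra8 mouse 3), and 5 to 7 otherwise. Over all genes, 1100 of 21465 were lower and 1530 higher in the main fit. With 1 mouse left out these were 499 to 1947 and 945 to 2428, of 22023 to 22173 tested. Listed genes below 0 numbered 27 to 30, and 23 to 29 with 1 mouse left out. Over all genes, 11060 lay below 0 in the main fit and 10866 to 11296 with 1 mouse left out. The cause was not tested.

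With the GC and length correction, alone and with the replicate block, signs turned for Pdk2 (0.01 in both), Pdp1 (-0.04), Sucla2 (-0.03), Me1 (-0.02) and Me3 (-0.02 and -0.04). With 1 mouse left out, values crossed 0 for Pdha2 (-0.06 to 0.05), Pdk4 (-0.04 to 0.36), Idh1 (-0.11 to 0.04), Suclg2 (-0.10 to 0.01), Fh1 (-0.08 to 0.04), Mdh1b (-0.04 to 0.02), Me3 (-0.09 to 0.16), and the ratios Pdha2/Pdha1 (-0.28 to 0.004) and Ogdhl/Ogdh (-0.08 to 0.13).

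Mice with the same number did not pair: their deviations correlated at -0.07, -0.12 and 0.18, and not every mouse matched its own number best. The replicate block gave 2 higher and 7 lower (1628 and 1002 of all 21465 genes), a smallest adjusted p of 0.252, and no changed call in the pairs of forms. Over all genes the count past the cutoffs was 2, but 39 without a filter, 5 with the block, 9 with DESeq2, 9 without HETStra8 mouse 1, 44 without HETStra8 mouse 3, 4 without KOStra8 mouse 1, and 1 without KOStra8 mouse 2 or 3. Pdp2 rests on 83 to 163 counts a library, and its SE carries that counting error.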
